A study of Homo sapiens with 26 samples.

Results

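Ribosome biogenesis begins in the nucleolus, where RNA polymerase I copies the ribosomal DNA into a long precursor RNA. Small nucleolar ribonucleoproteins then modify this precursor, and many assembly factors cut, fold and package it into the small and the large subunit. Growing cancer cells make many ribosomes, and several genes of this pathway are known targets of the transcription factor MYC. The 40 genes described here encode RNA polymerase I subunits and factors, nucleolar proteins and assembly factors. They were taken by name from a list, with no threshold on a measured value, but the list was drawn up with earlier results of these data known. All 40 were found among the 30331 named genes of the expression table, and all 40 were among the 14079 genes tested.

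Expression was measured by bulk RNA sequencing of ZR751 tumors. ZR751 is a human breast cancer cell line of the luminal, estrogen receptor-positive kind, grown here under the skin of female NSG mice, a strain without mature lymphocytes. Resistant tumors (5 mice) had been dosed with atirmociclib, which inhibits CDK4, a kinase that drives entry into the cell cycle, for 84 to 91 days. Sensitive tumors (3 mice) had been dosed with it for 3 days, and vehicle tumors (5 mice) had received vehicle, labelled DMSO, for 3 days. Each oral dose of atirmociclib was 60 mg/kg, with 2 doses a day that lay 7 hours apart, and dosing started at a mean tumor volume of 150 mm3. Tumors were removed 3 hours after the last dose. All groups shared this 1 cell line. Resistant tumors belonged to a different study with no vehicle mice among these samples, so drug exposure time, study and resistance cannot be told apart. Each mouse gave 2 libraries, A and B, and the mouse was the replicate, so p-values measure the spread between these mice.

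Values are in TPM, in which transcript abundance is adjusted for gene length and scaled to a fixed library total. They carry no read counts, so depth is unknown. The 8 luminal markers summed to 10254 to 13757 TPM in resistant, 7389 to 9513 TPM in sensitive and 7974 to 12245 TPM in vehicle tumors, and all 8 were present in every mouse. Most of this sum came from KRT8, KRT18 and KRT19, which averaged higher in resistant than in sensitive tumors (adjusted p = 0.0311, 0.0457 and 0.0376). Against vehicle tumors KRT19 was called higher (adjusted p = 6.76e-04), and KRT8 and KRT18 were not called (0.145 and 0.127). GATA3, FOXA1 and EPCAM averaged lower in resistant than in vehicle tumors (adjusted p = 2.36e-04, 0.0173 and 0.00174). They were not called in resistant against sensitive tumors (adjusted p = 0.209, 0.134 and 0.271). GATA3 was also lower in sensitive than in vehicle tumors (adjusted p = 0.0211). Fibroblast markers (6 genes) summed to 4.44 to 10.5 TPM in resistant, 5.76 to 8.26 TPM in sensitive and 7.71 to 13.1 TPM in vehicle tumors, nearly all of it from COL1A1. Endothelial markers (4 genes) stayed at or below 0.645 TPM in sum. Leukocyte markers (5 genes) summed to 5.67 to 14.9 TPM in resistant, 2.76 to 6.09 TPM in sensitive and 1.86 to 4.5 TPM in vehicle tumors, with PTPRC at most 0.015 TPM and CD3E at 0 in every mouse. The sum came from CD68, which averaged 7.97 TPM in resistant, 3.62 TPM in sensitive and 2.33 TPM in vehicle tumors, and LYZ, which averaged 3.08 TPM, 0.913 TPM and 0.658 TPM in the same order. Both were higher in resistant than in sensitive tumors (adjusted p = 0.024 and 0.00602) and than in vehicle tumors (adjusted p = 5.14e-04 and 1.97e-04). The 7 proliferation genes summed to 109 to 231 TPM in resistant, 65.3 to 102 TPM in sensitive and 454 to 644 TPM in vehicle tumors. The tumors grew in mice, while the markers are human genes, and how human and mouse reads were separated is not stated. The fibroblast, endothelial and leukocyte sums therefore do not give the amount of host cells. The part of these marker levels in the changes described here was not tested. In bulk tumor RNA, fewer cells of a type and less RNA per cell cannot be told apart.

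Several promoters of these genes carry the E-box CACGTG, the sequence that MYC and its partners are known to bind, and they are shown because this is a feature that the choice of genes did not use. The hexamer is its own reverse complement, so 1 search covers both strands. RefSeq (GRCh38.p14) promoters of 300 bases, from 250 bases before the start site, were available for 35 of the 40 genes. The 30-base windows below, from the genes that are given mouse by mouse, are written 5′ to 3′ on the strand of the gene, with the E-box in capitals. Positions in the notes are those of the first C of the hexamer, counted from 1 at the first transcribed base and with negative numbers before it.
FBL: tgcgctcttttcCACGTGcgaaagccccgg
NOP10: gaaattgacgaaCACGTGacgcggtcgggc
GAR1: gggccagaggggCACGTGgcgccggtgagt
UTP20: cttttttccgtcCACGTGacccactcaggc
NAT10: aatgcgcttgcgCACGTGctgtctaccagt
BYSL: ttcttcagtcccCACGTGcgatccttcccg
DDX21: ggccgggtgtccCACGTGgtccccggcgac
PES1: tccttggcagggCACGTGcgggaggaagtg
The window of FBL lies at chr19:39846356-39846385 on the minus strand, with the E-box at position 7. That of NOP10 lies at chr15:34343130-34343159 on the minus strand, at position -11, and NOP10 has another E-box at -170. The GAR1 window lies at chr4:109815781-109815810 on the plus strand, at position 32. The UTP20 window is at chr12:101280083-101280112 on the plus strand, at -10. The NAT10 window is at chr11:34105602-34105631 on the plus strand, at -15. The BYSL window is at chr6:41921515-41921544 on the plus strand, at 29. The DDX21 window is at chr10:68956604-68956633 on the plus strand, at -31, and the PES1 window is at chr22:30591880-30591909 on the minus strand, at 14. Each E-box in the windows shown thus lay within 32 bases of a start site.

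Of the 35 genes with a promoter entry, 15 (42.86%) had an E-box in at least 1 promoter. Of 9695 tested genes with an entry, 12.76% did. Counted over promoters, 34.09% of the 44 promoters of these genes held the hexamer, against 28.85% of 104 promoters of other genes of the pathway and 7.26% of all 35116 promoters in the table. Genes with the E-box came from the snoRNP and the subunit assembly roles (FBL, RRP9, GAR1, NOP10, NOP14, WDR43, BYSL, LYAR, UTP20, DDX21, NAT10, NOP2, PES1, GNL3 and MRTO4). None of the 6 RNA polymerase I genes had it in these windows. These shares are descriptions of letters, not of binding.

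The genes were expressed in every mouse, at levels that spanned more than 2 orders of magnitude, as the plot of levels by gene shows. NPM1, a histone chaperone and one of the most abundant nucleolar proteins, averaged 1161 ± 50.5 TPM (SD, n = 5) in resistant tumors, 1371 ± 76.7 TPM (SD, n = 3) in sensitive tumors and 1414 ± 128 TPM (SD, n = 5) in vehicle tumors. UTP20, a small subunit processing factor, averaged 9.42 ± 0.875 TPM (SD, n = 5) in resistant tumors, 13.03 ± 2.74 TPM (SD, n = 3) in sensitive tumors and 14.0 ± 2.23 TPM (SD, n = 5) in vehicle tumors. The 40 genes together summed to 3897 to 4313 TPM in resistant tumors (mean 4134 ± 150.5, SD, n = 5), 4563 to 4692 TPM in sensitive tumors (mean 4639 ± 67.7, SD, n = 3) and 4571 to 4919 TPM in vehicle tumors (mean 4738 ± 157.7, SD, n = 5). The resistant mice all lay below every sensitive and every vehicle mouse in this sum, of which NPM1 alone made up the largest share of any single gene. This separation holds for TPM as deposited: the mean log2(TPM + 1) of the 40 genes, taken relative to the median of all genes in the same mouse, was 1.489 to 1.725 in resistant, 1.696 to 1.773 in sensitive and 1.526 to 1.754 in vehicle mice, and the groups overlapped.

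**Figure D1:**
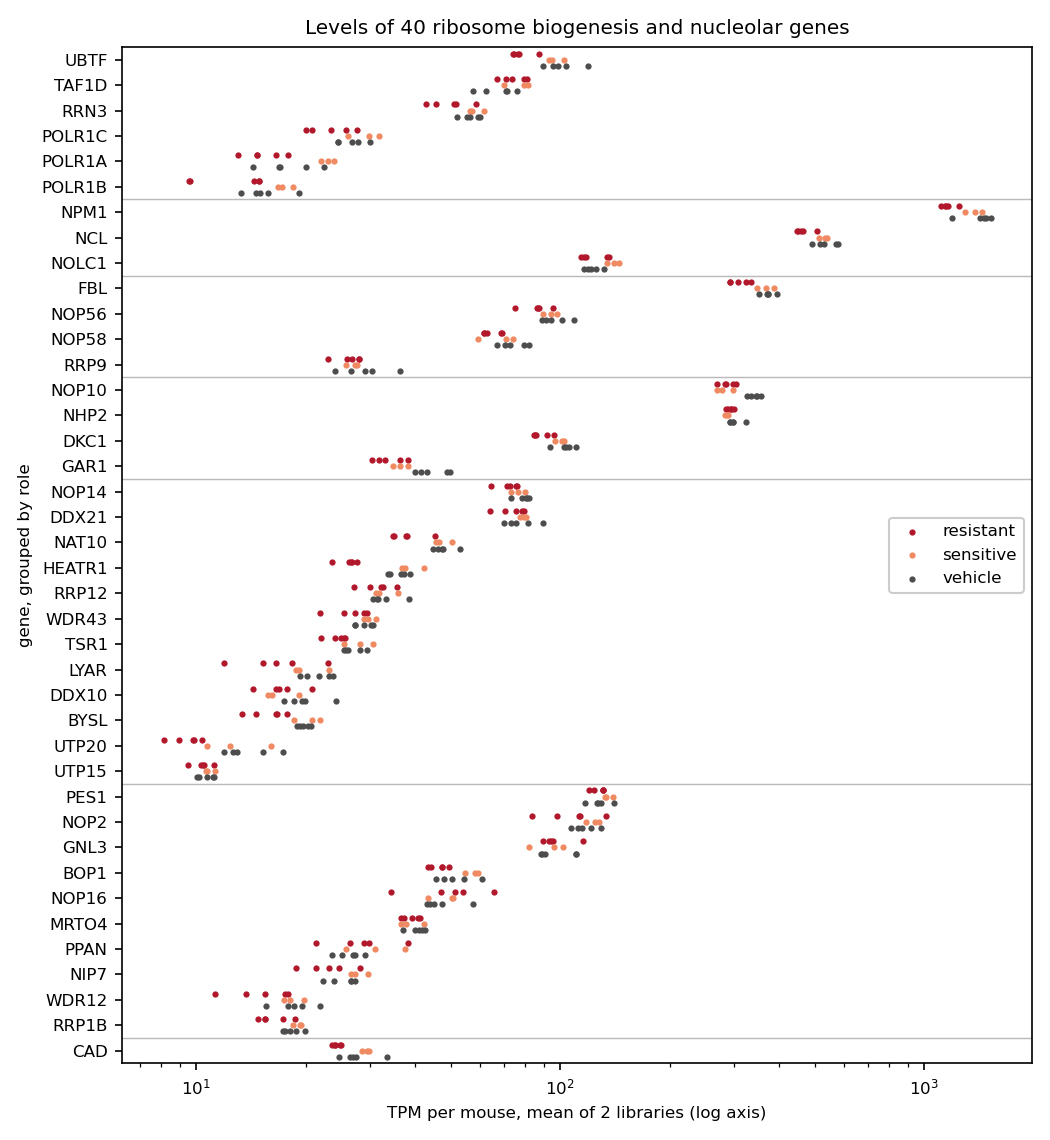
TPM per mouse (mean of libraries A and B, log axis) for the 40 genes, grouped by role with the highest vehicle mean first in each role; each point is 1 mouse. NPM1 lies at 1113 TPM or higher in all mice, and UTP20 lies at 8.13 to 10.3 TPM in resistant mice.

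The median spread within a group was smaller for these genes than for all genes tested, but genes of like level were not compared. All but POLR1B, UTP20 and UTP15 ranked above the middle of all genes tested by mean TPM in vehicle tumors. The median SD between mice of a group was 0.117 on the log2(TPM + 1) scale for the 40 genes, against 0.174 for all genes tested. The steadiest gene was NHP2, a core protein of the H/ACA particles, with an SD of 0.043, and the most variable was NOP16, a large subunit assembly factor, with 0.245. Libraries A and B of a mouse differed by a median of 0.062 for the 40 genes, against 0.104 for all genes tested. Among resistant mice, mouse 9-6 was the lowest in 24 of the 40 genes, and mouse 9-8 was the highest in 19. Among vehicle mice, mouse 1-4 was the lowest in 17 genes and mouse 1-6 the highest in 18. Among sensitive mice, mouse 6-5 was the lowest in 20 genes and mouse 6-4 the highest in 19.

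**Figure D2:**
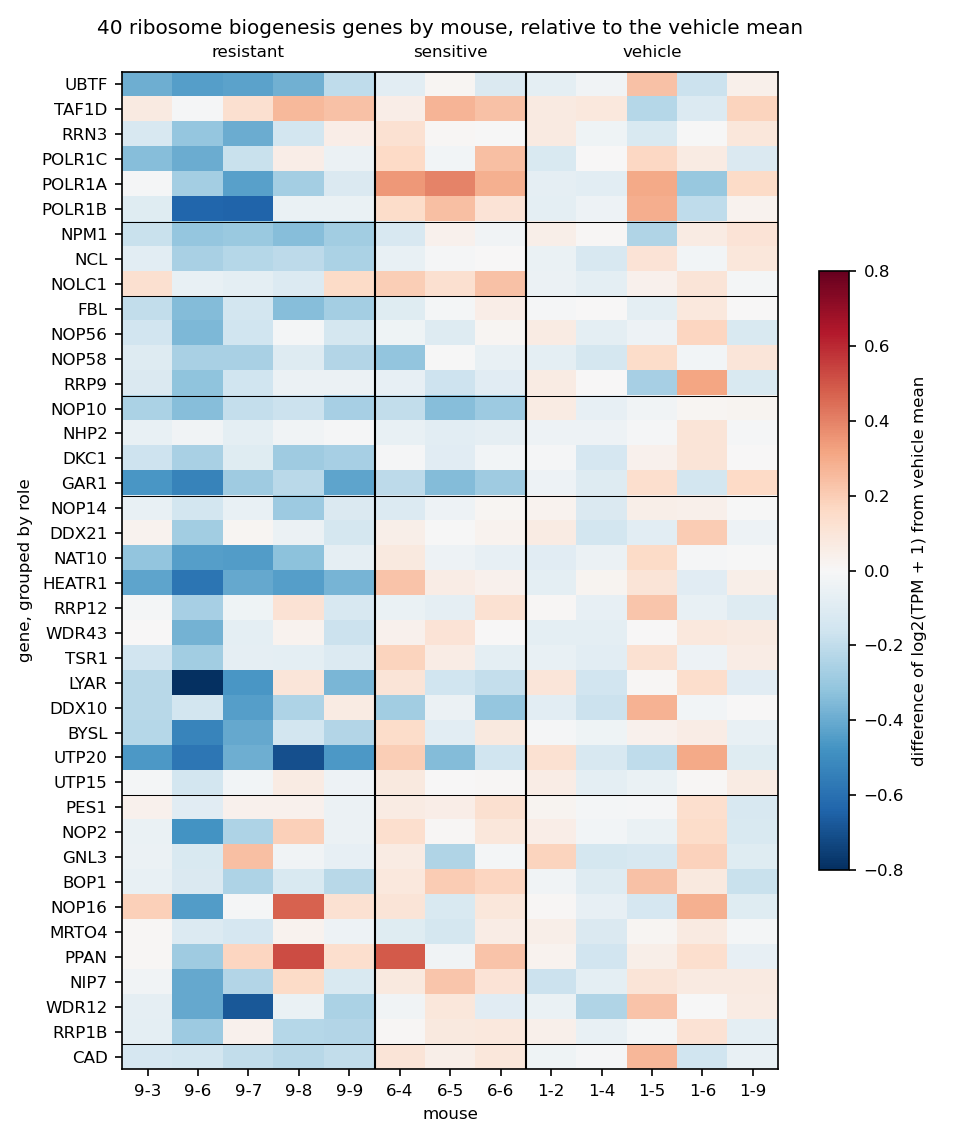
Difference of log2(TPM + 1) from the mean of the vehicle mice for the 40 genes (rows, grouped by role) in each mouse (columns: 5 resistant, 3 sensitive, 5 vehicle). Blue marks lower and red higher; the column of resistant mouse 9-6, lowest in 24 genes, is the bluest.

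In resistant against sensitive tumors, which differ in the length of dosing and in the study they came from, 10 of the 40 genes fell and 0 rose. The share that fell, 25%, stands beside 11.6% of all genes tested, and 9.56% of all genes rose. The genes that fell were HEATR1, POLR1A, FBL, BYSL, UBTF, BOP1, NAT10, CAD, NPM1 and UTP20. Changes are on the log2(TPM + 1) scale and relative to the median change of all genes tested (-0.05 as fitted in this comparison), and a gene is called at an adjusted p under 0.05 in a limma model over all 13 mice. The adjusted p tests the change as fitted. The median change of the 40 genes was -0.14, 33 lay below 0 and 7 above, and the range ran from -0.52 to 0.11. The interquartile range of the genes ran between -0.23 and -0.02, against -0.18 and 0.20 for all genes tested.

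This count depended on single mice and on the scaling. With median-of-ratios scaling 5 genes fell, as with each mouse centred on its own median, while quantile normalization gave 10. Over all 14079 genes tested, the 1631 that fell became 1344 with median-of-ratios scaling, 1245 with centring and 1806 with quantile normalization. Without sensitive mouse 6-4, 6-5 or 6-6 the count among the 40 genes was 4 each time, without resistant mouse 9-6 it was 5, and without resistant mouse 9-7 it was 6. Over all genes tested, the count was 690, 799, 1121, 1146 and 1340 in the same order.

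In resistant against vehicle tumors, 11 of the 40 genes fell and 0 rose. The share that fell, 27.5%, lies below the 32.5% of all genes tested that fell, and 11.5% of all genes rose. The genes were HEATR1, UBTF, NOP10, FBL, GAR1, UTP20, NAT10, NPM1, BYSL, DKC1 and NCL. The fitted median of all genes was -0.14, so a small relative change could pass the test in this comparison. The median relative change of the 40 genes was -0.04 (-0.17 as fitted), with a range of -0.38 to 0.27. With median-of-ratios scaling, as with centring of each mouse, 4 genes fell (HEATR1, UBTF, GAR1 and UTP20) and 1 rose (TAF1D). Quantile normalization left 8 of the 40 that fell. Over all genes tested, 2417 fell and 2562 rose with median-of-ratios scaling, 2071 and 2931 with centring, and 2773 and 2333 with quantile normalization.

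In sensitive against vehicle tumors, 1 of the 40 genes fell (NOP10) and 0 rose. That is 2.5%, against 12.6% of all genes tested that fell and 3.16% that rose. All 7 proliferation genes fell there. Their changes ran from -1.03 ± 0.29 for MCM2 (adjusted p = 0.0224) to -4.33 ± 0.20 for PLK1, a mitotic kinase (adjusted p = 7.02e-09). The median change of the 40 genes was 0.09 relative to a fitted median of -0.07, with 33 above 0, 7 below and a range of -0.21 to 0.41. The interquartile range ran between 0.02 and 0.15, against -0.16 and 0.17 for all genes. With median-of-ratios scaling, quantile normalization or centring of each mouse, 0 of the 40 genes fell and 3 rose (NOLC1, POLR1A and HEATR1). Over all genes tested, 1059, 989 and 966 fell and 792, 938 and 1018 rose in the same order. Without sensitive mouse 6-5 the count of the 40 genes that fell was 0, without vehicle mouse 1-6 it was 2, and without vehicle mouse 1-5, 1 gene rose. Over all genes tested, 802 and 1886 fell and 544 rose in the same order. The 3 comparisons share groups of mice with each other, so their values are given side by side and not as independent results.

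**Figure D3:**
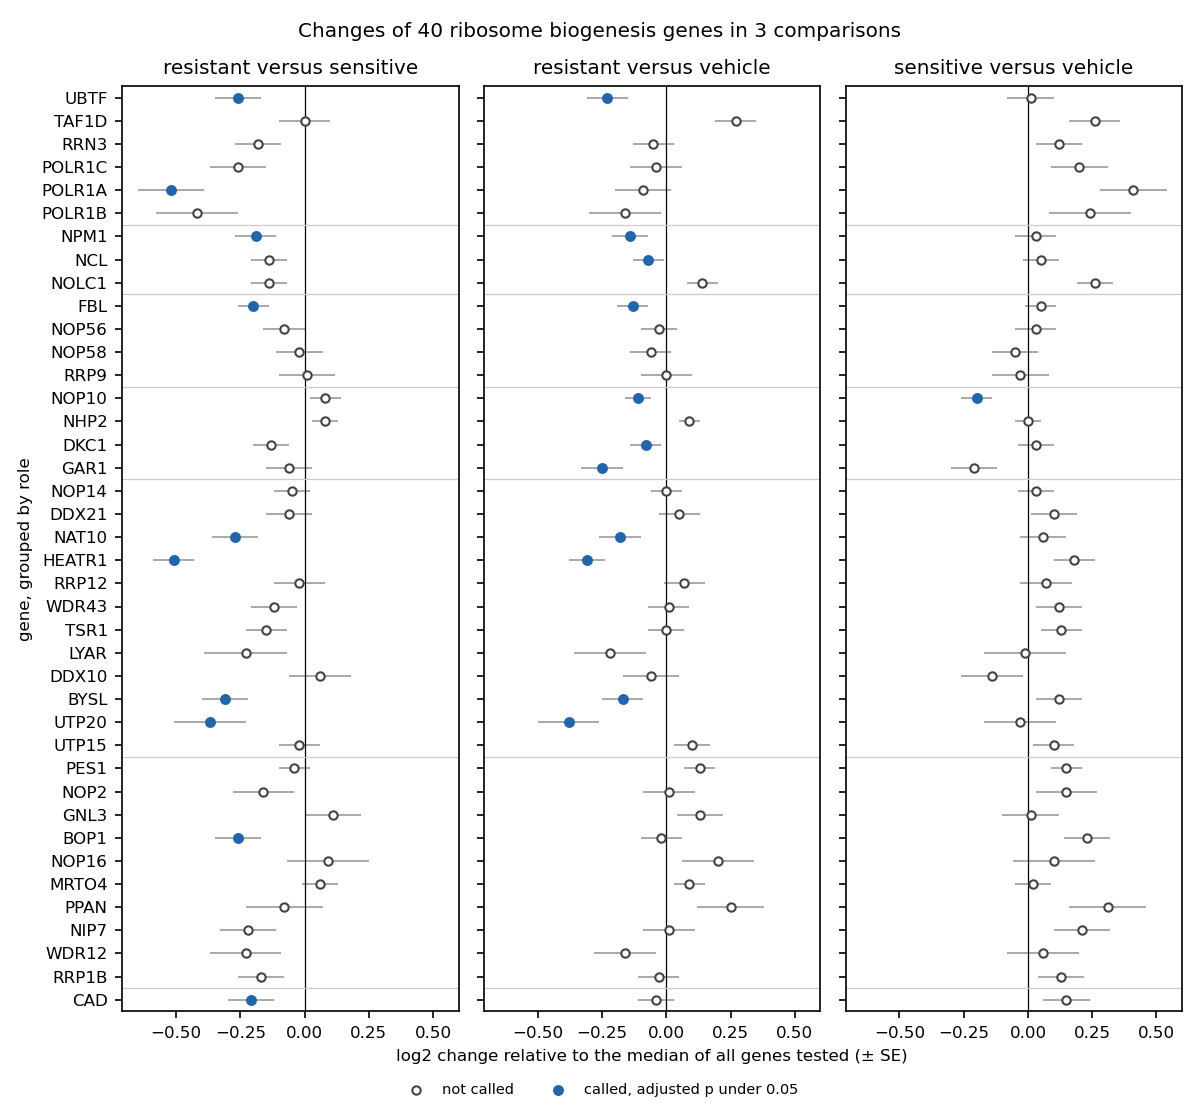
Log2 change relative to the median of all genes tested, ± SE, for the 40 genes grouped by role in 3 comparisons. Filled points passed an adjusted p of 0.05: 10 genes in resistant versus sensitive, 11 in resistant versus vehicle and 1 in sensitive versus vehicle, all below 0.

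**Figure D4:**
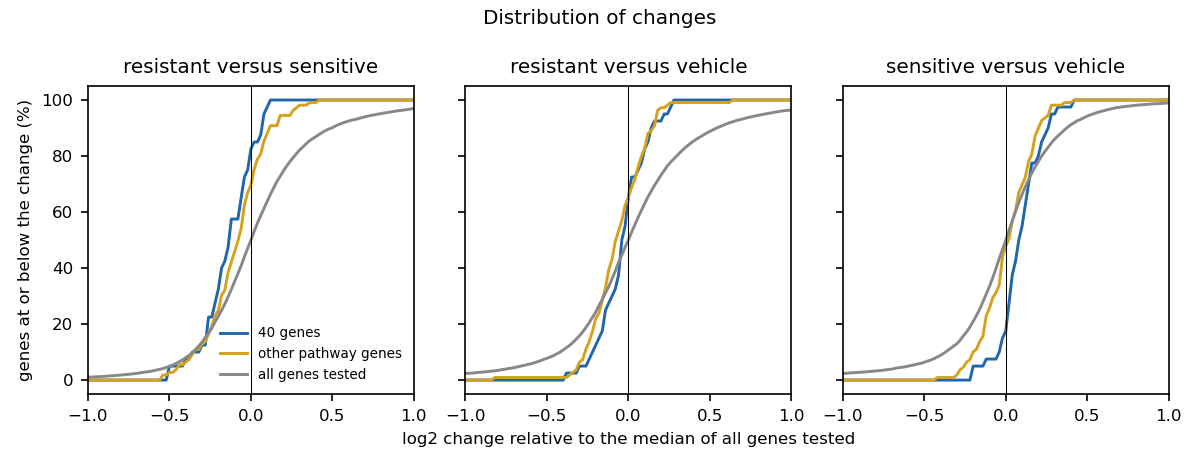
Share of genes (percent) at or below each log2 change, relative to the median of all genes tested, for the 40 genes, 109 other pathway genes and all 14079 genes tested. The curves of the 40 genes are steeper: in resistant versus sensitive their interquartile range lies between -0.23 and -0.02, against -0.18 and 0.20 for all genes.

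Large changes were rare among these genes, though genes of like level were not compared. All 40 lay within 0.5 of the median change in sensitive against vehicle and in resistant against vehicle tumors, and 38 did in resistant against sensitive tumors. The share of all genes tested within 0.5 was 87.9%, 81.0% and 85.2% in the same 3 comparisons. The 2 genes outside it were POLR1A and HEATR1.

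Of the 6 genes of RNA polymerase I and its factors, 2 fell in resistant against sensitive tumors and 1 in resistant against vehicle tumors. These shares are 33.3% and 16.7%, against 11.6% and 32.5% of all genes tested. POLR1A (chromosome 2, 86020216 to 86106155, GRCh38, GENCODE 29) encodes the largest subunit of the enzyme. It had 17.8, 14.7, 13, 14.7 and 16.5 TPM in resistant mice, against 23.1, 23.9 and 22.1 TPM in sensitive mice. All resistant mice lay below all sensitive mice. The change was -0.52 ± 0.13 (adjusted p = 0.00889), and the call held in each of the 26 alternative analyses, with an adjusted p of at most 0.0428. In vehicle mice POLR1A had 17.0, 16.9, 22.4, 14.3 and 20.1 TPM, which overlapped with the resistant mice, and resistant against vehicle tumors were not called (-0.09 ± 0.11, adjusted p = 0.119; without vehicle mouse 1-6, adjusted p = 0.0326). Sensitive against vehicle tumors gave 0.41 ± 0.13 (adjusted p = 0.0881). That comparison was called with median-of-ratios scaling (adjusted p = 0.0291), with quantile normalization (0.0178), with weights per mouse (0.0145), with centring (0.0244) and without vehicle mouse 1-5 (0.0284).

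UBTF (chromosome 17, 44205033 to 44221626) encodes the factor that binds the ribosomal DNA and keeps it open for transcription. It had 76.5, 74.1, 74.6, 77.0 and 87.4 TPM in resistant mice, 95.0, 102 and 92.8 TPM in sensitive mice and 95.5, 98.6, 119, 89.5 and 103.6 TPM in vehicle mice. Every resistant mouse lay below every mouse of both other groups, though mouse 9-9 came close to the lowest vehicle mouse. UBTF fell by 0.26 ± 0.09 against sensitive tumors (adjusted p = 0.0236) and by 0.23 ± 0.08 against vehicle tumors (adjusted p = 0.00167). The fall against vehicle was called in all 26 alternatives (adjusted p at most 0.0345). The fall against sensitive tumors was lost with A libraries alone (adjusted p = 0.0742) and without mouse 6-4 (0.0634), 6-5 (0.104) or 9-6 (0.0509).

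The other 4 genes of this role were not called in any comparison. POLR1B, the other large subunit, averaged 12.7 ± 2.82 TPM (SD, n = 5) in resistant tumors, 17.5 ± 0.842 TPM (SD, n = 3) in sensitive tumors and 15.6 ± 2.20 TPM (SD, n = 5) in vehicle tumors. Resistant mice did not overlap with sensitive mice for POLR1B, and its adjusted p of 0.0509 was just past the threshold (-0.42 ± 0.16), and it was called without mouse 1-5, 1-6, 9-3, 9-8 or 9-9 (adjusted p 0.0356 to 0.0495). It was also called over 26 libraries (0.00974, and 0.0115 with the letter), with weights per mouse (0.0198), A libraries alone (0.0453), the filter at 5 TPM (0.047) and robust eBayes (0.049). POLR1C, a subunit shared with RNA polymerase III, gave -0.26 ± 0.11 in resistant against sensitive tumors (adjusted p = 0.0637; 0.0317 without mouse 9-8). RRN3, which brings the polymerase to the promoter, gave -0.18 ± 0.09 (adjusted p = 0.0936; 0.0313 without mouse 9-9), and reads of its pseudogene copy RRN3P3 (2.98 to 4.86 TPM) could be split with it. TAF1D, a subunit of the promoter selectivity factor, gave -0.00 ± 0.10 against sensitive tumors and 0.27 ± 0.08 against vehicle tumors (adjusted p = 0.195; 0.0205 with median-of-ratios scaling and 0.0158 with centring). In vehicle mouse 1-5 the levels of POLR1A, POLR1B, POLR1C and UBTF were all the highest of the vehicle group, while those of RRN3 and TAF1D were the lowest.

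Among the abundant nucleolar proteins, NPM1 (chromosome 5, 171387116 to 171411137) had 1245, 1137, 1146, 1113 and 1164 TPM in resistant mice, against 1291, 1444 and 1379 TPM in sensitive mice. Resistant and sensitive mice did not overlap. NPM1 fell by 0.19 ± 0.08 against sensitive tumors (adjusted p = 0.0452). This call was lost with median-of-ratios scaling (adjusted p = 0.187), with centring (0.20), with A libraries alone (0.0953), with no filter on low values (0.0778), and without any 1 of mice 1-2, 1-4, 6-4, 6-5, 6-6, 9-6, 9-7, 9-8 and 9-9 (adjusted p 0.0548 to 0.17). Vehicle mice had 1455, 1421, 1194, 1477 and 1522 TPM, and mouse 1-5 lay within the resistant range. Against vehicle tumors NPM1 fell by 0.14 ± 0.07 (adjusted p = 0.00514), a call lost with median-of-ratios scaling (adjusted p = 0.248) or centring (0.327).

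NCL, which encodes nucleolin, an RNA-binding protein of the nucleolus, averaged 465 ± 24.1 TPM (SD, n = 5) in resistant tumors, 529 ± 12.7 TPM (SD, n = 3) in sensitive tumors and 538 ± 37.1 TPM (SD, n = 5) in vehicle tumors. It fell against vehicle tumors by 0.07 ± 0.06 relative to all genes, with a fitted change of -0.21 and overlapping mice. The adjusted p of the fitted change was 0.0106. The call was lost with median-of-ratios scaling (adjusted p = 0.505), quantile normalization (0.0541) and centring (0.672). NOLC1, a chaperone of small nucleolar particles, averaged 124 ± 10.7 TPM (SD, n = 5) in resistant tumors, 140 ± 5.45 TPM (SD, n = 3) in sensitive tumors and 123 ± 6.13 TPM (SD, n = 5) in vehicle tumors. Sensitive mice all lay above vehicle mice for NOLC1, and the change of 0.26 ± 0.07 was not called (adjusted p = 0.10), though it was with median-of-ratios scaling (0.0347), quantile normalization (0.0172), centring (0.0282) and 3 other fits.

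Box C/D particles guide ribose methylation of ribosomal RNA, and RRP9 is a protein of the U3 particle. Of the genes of this role, FBL fell and NOP56, NOP58 and RRP9 were not called in any comparison. FBL (chromosome 19, 39834458 to 39846414), the methyltransferase of these particles, had 324, 292, 335, 293 and 308 TPM in resistant mice, 348, 368 and 386 TPM in sensitive mice and 370, 372, 352, 394 and 373 TPM in vehicle mice. The resistant mice lay below all others, and sensitive and vehicle mice overlapped. FBL fell by 0.20 ± 0.06 against sensitive tumors (adjusted p = 0.0175) and by 0.13 ± 0.06 against vehicle tumors (adjusted p = 0.00207). The call against sensitive tumors was lost with median-of-ratios scaling (0.0919), with centring (0.101) and without mouse 6-5 (0.0632) or 6-6 (0.0777). The call against vehicle tumors was lost with median-of-ratios scaling (0.201) and centring (0.291). The related gene FBLL1, at 2.34 to 6.25 TPM, could share reads with FBL. The scaffold gene NOP56 averaged 86.3 ± 7.20 TPM (SD, n = 5) in resistant tumors, 94.0 ± 4.01 TPM (SD, n = 3) in sensitive tumors and 96.9 ± 8.19 TPM (SD, n = 5) in vehicle tumors.

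Proteins of the box H/ACA particles, which guide the conversion of uridine to pseudouridine, are also part of telomerase. Their genes included a pair, NOP10 and GAR1, for which both drug-treated groups lay below vehicle. NOP10 (chromosome 15, 34341713 to 34343177), the smallest of the 4 proteins, had 286, 269, 299, 303 and 284 TPM in resistant mice, 298, 270 and 279 TPM in sensitive mice and 357, 326, 334, 345 and 346 TPM in vehicle mice. Resistant and sensitive mice overlapped, and both lay below every vehicle mouse. NOP10 fell by 0.20 ± 0.06 in sensitive against vehicle tumors (adjusted p = 0.00627) and by 0.11 ± 0.05 in resistant against vehicle tumors (adjusted p = 0.0019). In sensitive against vehicle tumors the call was lost with median-of-ratios scaling (adjusted p = 0.0683), quantile normalization (0.158), centring (0.096) and without mouse 6-5 (0.0533). In resistant against vehicle tumors it was lost with median-of-ratios scaling (0.182) and centring (0.288).

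GAR1 (chromosome 4, 109815510 to 109824740) had its lowest mean in resistant tumors, while that of NOP10 was in sensitive tumors. GAR1 had 31.8, 30.4, 36.4, 38.1 and 32.9 TPM in resistant mice, 38.2, 34.7 and 36.2 TPM in sensitive mice and 43.1, 41.4, 48.8, 39.98 and 49.8 TPM in vehicle mice. Resistant and sensitive mice overlapped, and both lay below every vehicle mouse. GAR1 fell by 0.25 ± 0.08 in resistant against vehicle tumors (adjusted p = 0.00215), and the call held in all 26 alternatives (adjusted p at most 0.0316). In sensitive against vehicle tumors the change of -0.21 ± 0.09 was not called (adjusted p = 0.0583); it was called with A libraries alone (0.0323), without vehicle mouse 1-6 (0.0378), with weights per mouse (0.0165) and over all 26 libraries with the mouse as a random effect (0.0474).

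DKC1 on chromosome X, the pseudouridine synthase itself, averaged 88.8 ± 5.09 TPM (SD, n = 5) in resistant tumors, 100.2 ± 3.09 TPM (SD, n = 3) in sensitive tumors and 103 ± 6.09 TPM (SD, n = 5) in vehicle tumors. Against vehicle tumors it fell by 0.08 ± 0.06 relative to all genes, with a fitted change of -0.21. The adjusted p of the fitted change was 0.00906. This call was lost with median-of-ratios scaling (0.437), quantile normalization (0.135) and centring (0.598). NHP2 averaged 292 ± 5.87 TPM (SD, n = 5) in resistant tumors, 286 ± 2.43 TPM (SD, n = 3) in sensitive tumors and 301 ± 13 TPM (SD, n = 5) in vehicle tumors and was not called in any comparison.

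**Figure D5:**
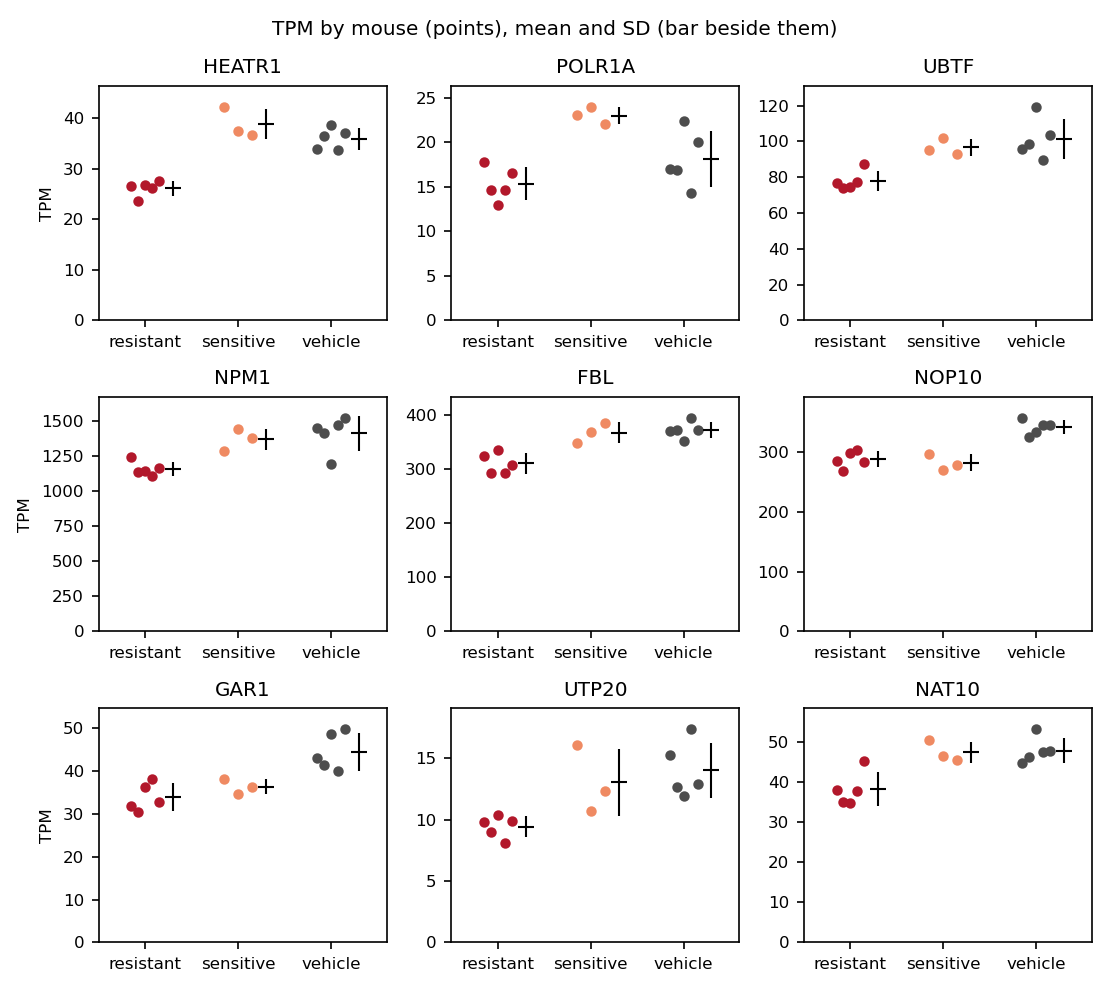
TPM in each mouse (points) with the group mean and SD (bar) for 9 genes, with the axis from 0. For HEATR1 and UBTF all 5 resistant mice lie below all mice of both other groups; for NOP10 and GAR1 resistant and sensitive mice lie below all vehicle mice.

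Small subunit processing held the gene that had the smallest adjusted p of the 40 in both comparisons of resistant tumors. HEATR1 (chromosome 1, 236549005 to 236604504) encodes a large scaffold protein of the early processing complex that is also needed for transcription of ribosomal DNA. It had 26.6, 23.6, 26.8, 26.2 and 27.6 TPM in resistant mice, 42.2, 37.5 and 36.8 TPM in sensitive mice and 34.0, 36.5, 38.6, 33.7 and 37.2 TPM in vehicle mice. Every resistant mouse lay below every other mouse, with a gap wider than the range of the resistant mice. HEATR1 fell by 0.51 ± 0.08 against sensitive tumors (adjusted p = 5.92e-04) and by 0.31 ± 0.07 against vehicle tumors (adjusted p = 1.87e-04). Both calls held in all 26 alternatives. Sensitive against vehicle tumors gave 0.18 ± 0.08 (adjusted p = 0.363), with overlapping mice, and was called as a rise with the 3 scalings (0.0271 to 0.0458).

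UTP20 (chromosome 12, 101280109 to 101386616) had 9.81, 8.95, 10.3, 8.13 and 9.85 TPM in resistant mice, 16.04, 10.7 and 12.3 TPM in sensitive mice and 15.2, 12.6, 11.9, 17.3 and 12.9 TPM in vehicle mice. The resistant mice lay below all others, by less than 1 TPM at the closest sensitive mouse. UTP20 fell by 0.38 ± 0.12 against vehicle tumors (adjusted p = 0.0037), in all 26 alternatives. Its fall against sensitive tumors (0.37 ± 0.14, adjusted p = 0.0473) was lost in most of them, among them each omission of mouse 1-2, 1-4, 1-9, 6-4, 6-6, 9-3, 9-6, 9-7, 9-8 or 9-9 (adjusted p 0.052 to 0.242).

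NAT10 (chromosome 11, 34105602 to 34147670), which acetylates cytidines of ribosomal RNA, had 38.0, 34.9, 34.7, 37.7 and 45.2 TPM in resistant mice, 50.3, 46.3 and 45.5 TPM in sensitive mice and 44.6, 46.1, 53.0, 47.3 and 47.6 TPM in vehicle mice. Mouse 9-9 stood above the other resistant mice and within the vehicle range, so that resistant and vehicle mice overlapped and resistant and sensitive mice did not. NAT10 fell by 0.27 ± 0.09 against sensitive tumors (adjusted p = 0.0248), lost with A libraries alone (0.0506) and without mouse 6-4 (0.109), 6-5 (0.0663), 9-6 (0.0557) or 9-7 (0.0511). It fell by 0.18 ± 0.08 against vehicle tumors (adjusted p = 0.00452), lost with median-of-ratios scaling (0.0753) and centring (0.119).

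BYSL (chromosome 6, 41921188 to 41933046), a factor in maturation of the small subunit, had 16.7, 13.3, 14.6, 17.7 and 16.6 TPM in resistant mice, 21.9, 18.5 and 20.8 TPM in sensitive mice and 19.6, 19.2, 20.2, 20.6 and 18.9 TPM in vehicle mice. Resistant mice lay below all others. BYSL fell by 0.31 ± 0.09 against sensitive tumors (adjusted p = 0.0192), lost with A libraries alone (0.081), B libraries alone (0.0555), both fits over 26 libraries (0.0572 and 0.052) and without mouse 6-4 (0.09) or 6-6 (0.0616). It fell by 0.17 ± 0.08 against vehicle tumors (adjusted p = 0.00809), lost with median-of-ratios scaling (0.131), quantile normalization (0.224) and centring (0.209).

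The other 8 small subunit genes were not called in any comparison. The helicase gene DDX21 had 79.5, 63.9, 78.5, 75.3 and 70.4 TPM in resistant mice, 80.3, 77.5 and 79.5 TPM in sensitive mice and 81.5, 70.1, 73.4, 89.7 and 75.7 TPM in vehicle mice, so that all 3 groups overlapped. LYAR, a nucleolar zinc finger protein, averaged 17.0 ± 4.13 TPM (SD, n = 5) in resistant tumors, 20.4 ± 2.43 TPM (SD, n = 3) in sensitive tumors and 21.6 ± 1.92 TPM (SD, n = 5) in vehicle tumors. Its resistant mice ranged from 11.9 to 23.1 TPM, and it had the widest difference between the libraries of a mouse (0.55 on the log2 scale). UTP15, of the same early complex as HEATR1, averaged 10.4 ± 0.600 TPM (SD, n = 5) in resistant tumors, 10.9 ± 0.332 TPM (SD, n = 3) in sensitive tumors and 10.6 ± 0.510 TPM (SD, n = 5) in vehicle tumors.

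Large subunit assembly had 1 called gene of 10, in resistant against sensitive tumors. That is 10%, against 11.6% of all genes tested that fell there. PES1, BOP1 and WDR12 form a complex that processes the large subunit precursor. BOP1 had 49.3, 47.4, 43.2, 47.2 and 44.0 TPM in resistant mice, 54.6, 59.5 and 58.3 TPM in sensitive mice and 50.4, 47.9, 60.8, 54.3 and 45.4 TPM in vehicle mice. Resistant and sensitive mice did not overlap, while vehicle mice overlapped with both. BOP1 fell by 0.26 ± 0.09 against sensitive tumors (adjusted p = 0.0246), lost with A libraries alone (0.121), median-of-ratios scaling (0.0792), centring (0.0883) and without mouse 6-5 (0.0959), 6-6 (0.0726) or 9-7 (0.05).

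PES1 (chromosome 22, 30576625 to 30607083), the most abundant gene of this role, had 131, 120, 131, 131 and 124 TPM in resistant mice, 134, 133 and 140 TPM in sensitive mice and 130, 126, 127, 141 and 117 TPM in vehicle mice. Resistant mice lay below sensitive mice by a small gap, with a change of -0.04 ± 0.06 (adjusted p = 0.339), and overlapped with vehicle mice. WDR12 averaged 15.2 ± 2.76 TPM (SD, n = 5) in resistant tumors, 18.4 ± 1.24 TPM (SD, n = 3) in sensitive tumors and 18.7 ± 2.35 TPM (SD, n = 5) in vehicle tumors and was not called. The GTPase gene GNL3, known as nucleostemin, averaged 97.6 ± 10.2 TPM (SD, n = 5) in resistant tumors, 93.5 ± 10.2 TPM (SD, n = 3) in sensitive tumors and 98.0 ± 11.6 TPM (SD, n = 5) in vehicle tumors, a difference smaller than the spread between mice. PPAN shares sequence with the read-through gene PPAN-P2RY11, listed on its own at up to 6.64 TPM, and how reads were split between them was not measured. Relative to all genes, the 10 genes had a median change of -0.12 in resistant against sensitive tumors, 0.05 in resistant against vehicle tumors and 0.14 in sensitive against vehicle tumors.

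CAD (chromosome 2, 27217390 to 27243943) encodes the enzyme that starts pyrimidine synthesis, which supplies nucleotides for ribosomal RNA. It had 25.04, 24.9, 24.01, 23.6 and 24 TPM in resistant mice, 29.8, 28.6 and 29.4 TPM in sensitive mice and 26.9, 27.5, 33.5, 24.6 and 26.4 TPM in vehicle mice. Resistant and sensitive mice each kept within a narrow range and did not overlap, and vehicle mice spread across both. CAD fell by 0.21 ± 0.09 against sensitive tumors (adjusted p = 0.0449). The call was lost with median-of-ratios scaling (0.0656), quantile normalization (0.0529), centring (0.0717), A libraries alone (0.206) and without any 1 of mice 1-2, 1-4, 1-9, 6-4, 6-5, 6-6, 9-3, 9-6, 9-7, 9-8 and 9-9 (adjusted p 0.0539 to 0.132).

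Some of the uncalled genes passed the threshold when 1 mouse was left out. In resistant against sensitive tumors, NCL did so without mouse 1-5 (adjusted p = 0.0347) or 9-3 (0.0426), RRP1B without 9-7 (0.0433) and NIP7 without 9-8 (0.0375). In resistant against vehicle tumors, NOP58 did so without mouse 1-4 (adjusted p = 0.0359) or 6-4 (0.0328), and WDR12 without 1-4 (0.0372), 9-3 (0.0415) or 9-8 (0.0362). LYAR did so without 9-8 (0.00896), NOP56 without 9-8 (0.0411), NOP14 without 1-4 (0.0471), CAD without 1-6 (0.026), RRN3 without 1-5 (0.0492) or 9-9 (0.019) and RRP1B without 9-7 (0.0356). All of these lay on the lower side in resistant tumors as fitted. In resistant against vehicle tumors the fitted median of all genes was itself -0.14. Relative to it, the changes there were -0.0 for NOP14, -0.03 for NOP56 and RRP1B, -0.04 for CAD and -0.05 for RRN3. They were -0.06 for NOP58, -0.16 for WDR12 and -0.22 for LYAR.

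The E-box and the changes were set side by side for the 35 genes with a promoter entry. Of the 15 genes with an E-box, 4 fell in resistant against sensitive tumors, 6 in resistant against vehicle tumors and 1 in sensitive against vehicle tumors. Of the 20 without one, 5, 5 and 0 fell in the same comparisons. Of all genes tested, 11.6%, 32.5% and 12.6% fell in the same order. In resistant against sensitive tumors the median change was -0.06 with and -0.17 without an E-box. In resistant against vehicle tumors it was -0.0 with and -0.05 without, and in sensitive against vehicle tumors 0.03 with and 0.11 without. No test of these splits was made. MYC itself averaged 197 ± 23.99 TPM (SD, n = 5) in resistant tumors, 238 ± 30.8 TPM (SD, n = 3) in sensitive tumors and 162 ± 27.1 TPM (SD, n = 5) in vehicle tumors. MYC was called higher in sensitive than in vehicle tumors (0.63 ± 0.14, adjusted p = 0.0142). It was not called in resistant against sensitive (adjusted p = 0.167) or resistant against vehicle tumors (0.0659). Of the MYC-related genes MAX, MNT and MXD4, only MAX was called, lower in resistant than in vehicle tumors (-0.12 ± 0.07, adjusted p = 0.00936). The part of these genes in the changes above was not tested, nor was that of proliferation, whose genes were lowest in sensitive tumors.

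Other genes of RNA polymerase I and ribosome assembly came from a list of 110, of which 109 were in the table and all 109 of those were tested. In resistant against sensitive tumors 21 fell and 2 rose, in resistant against vehicle tumors 55 fell and 1 rose, and in sensitive against vehicle tumors 11 fell and 1 rose. The shares that fell were 19.3%, 50.5% and 10.1%, against 11.6%, 32.5% and 12.6% of all genes tested. The median relative changes were -0.08, -0.08 and 0.01. The count of 55 became 15 with median-of-ratios scaling, 18 with quantile normalization and 14 with centring. Over all 14079 genes tested, the 4570 that fell became 2417, 2773 and 2071 in the same order. Under each of these scalings the share of the 109 genes that fell was below that of all genes tested. The larger share in resistant against vehicle tumors thus holds only for TPM as deposited. The count of 21 became 11 without mouse 6-4, 8 without 6-5 and 14 without 6-6, and the count of 11 became 4 without 6-5 or 6-6. Over all genes, the matching 1631 became 690, 799 and 1121, and the 1767 became 802 without 6-5 and 964 without 6-6. In sensitive against vehicle tumors, 2 fell and 3 rose with median-of-ratios scaling, and 1 fell and 4 rose with quantile normalization or centring, so that the balance of calls turned round. Over all genes, 1059 fell and 792 rose with median-of-ratios scaling, 989 and 938 with quantile normalization, and 966 and 1018 with centring.

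NVL, an ATPase of large subunit assembly, fell to 55.9 ± 3.30 TPM (SD, n = 5) in resistant tumors, against 110 ± 11.8 TPM (SD, n = 5) in vehicle tumors (-0.82 ± 0.11, adjusted p = 3.09e-05). NOL11, a partner of the early small subunit complex, fell to 53.7 ± 4.65 TPM (SD, n = 5) in resistant tumors, against 76.8 ± 3.19 TPM (SD, n = 5) in vehicle tumors (-0.38 ± 0.06, adjusted p = 5.40e-05). TCOF1, the treacle protein that works with UBTF, averaged 29.8 ± 1.21 TPM (SD, n = 5) in resistant and 40.2 ± 2.67 TPM (SD, n = 5) in vehicle tumors (-0.28 ± 0.06, adjusted p = 1.68e-04). RCL1, a small subunit processing factor, was the gene that rose there, to 31.0 ± 7.76 TPM (SD, n = 5) in resistant against 21.3 ± 3.01 TPM (SD, n = 5) in vehicle tumors (0.64 ± 0.14, adjusted p = 0.0104).

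In resistant against sensitive tumors, NOB1, the nuclease that finishes the small subunit rRNA, fell to 54.9 ± 2.42 TPM (SD, n = 5), against 77.9 ± 2.32 TPM (SD, n = 3) in sensitive tumors (-0.45 ± 0.07, adjusted p = 4.17e-04). TAF1A, of the promoter selectivity factor, fell by 0.56 ± 0.13 (adjusted p = 0.00575) and NOL11 by 0.31 ± 0.08 (adjusted p = 0.00594). The genes that rose were RRP36, a small subunit factor (0.35 ± 0.09, adjusted p = 0.027), and RUVBL2, an ATPase that helps assemble snoRNPs (0.25 ± 0.06, adjusted p = 0.0306). The rise of RRP36 was lost without mouse 6-4 (adjusted p = 0.0531), 6-5 (0.142) or 9-7 (0.0559). That of RUVBL2 was lost without any 1 of mice 6-4, 6-5, 6-6, 9-3, 9-6, 9-8 and 9-9 (adjusted p 0.0514 to 0.112).

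In sensitive against vehicle tumors, NOP53, a nucleolar large subunit factor listed under its older symbol GLTSCR2, rose to 682 ± 39.5 TPM (SD, n = 3) in sensitive tumors, against 539 ± 44.5 TPM (SD, n = 5) in vehicle tumors (0.42 ± 0.07, adjusted p = 0.00648). UTP18, of the small subunit processome, fell to 61.2 ± 6.15 TPM (SD, n = 3) in sensitive tumors, against 79.8 ± 5.08 TPM (SD, n = 5) in vehicle tumors (-0.30 ± 0.07, adjusted p = 0.00328). RUVBL2 fell there by 0.20 ± 0.06 (adjusted p = 0.00708), a call lost with median-of-ratios scaling (0.0884), quantile normalization (0.0724) and centring (0.12). TAF1B, of the promoter selectivity factor, fell by 0.42 ± 0.12 (adjusted p = 0.0126), a call lost with quantile normalization (0.0678), centring (0.0576), B libraries alone (0.0593) and without mouse 6-5 (0.091). The calls of NVL, NOL11, TCOF1, RCL1, NOB1, TAF1A, NOP53 and UTP18 given here held in all 26 alternatives.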

How the data were processed

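Bulk RNA-seq of 26 libraries from 13 mice was used. The deposited table gives TPM made by the authors. Tools listed in the submitters' processing notes are RSEM, STAR, HTSeq and FastQC, and builds are GRCh38 and GRCm38, with neither roles nor versions. The sources used here do not say how human and mouse reads were separated. Depth is unknown, so no counting interval is given; TPM sums were 999850 to 999889 per library.

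Libraries A and B were averaged per mouse after log2(TPM + 1). A gene was kept where 3 or more mice reached a mean TPM of 1 (14079 genes). One limma model (3.58.1, R 4.3.3, trend option) covered 13 mice. Adjusted p is Benjamini-Hochberg over all genes tested, two-sided, called under 0.05. Changes are relative to the median change of all genes; SE and adjusted p are as fitted. TPM levels are means of A and B, with SD over mice. The model was tested on simulated data. The 26 alternatives changed the pseudocount, filter, scaling, libraries, variance model or samples, and left out each mouse; centring was chosen after seeing the data. Letters A and B do not pair mice.

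The genes and lists were chosen with earlier results of these data known. Given mouse by mouse were, per comparison, the 8 called genes with the smallest adjusted p and, per role, the most abundant gene. Of other pathway genes, the 3 with the smallest adjusted p per direction and comparison could be named. Positions are from GENCODE 29 (GRCh38), promoters from RefSeq.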

Additional observations from a re-analysis of the deposited data

Results flagged for a closer look

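Within groups of 5 mice, 80 sets of values were checked for a mouse set apart from the others, and 4 were found (gap over range above 0.71). Chance flags about 1 in 20 groups, so 4 of 80 is the number that chance would give. NCL had 506.8 TPM in resistant mouse 9-3, against 447.6 to 464.6 TPM in the other resistant mice. UBTF had 87.43 TPM in resistant mouse 9-9, against 74.08 to 77.02 TPM in the others, still below every sensitive and vehicle mouse. GNL3 had 115.4 TPM in resistant mouse 9-7, against 89.58 to 95.55 TPM in the others. NHP2 had 323.7 TPM in vehicle mouse 1-6, against 292.0 to 298.8 TPM in the other vehicle mice.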

How the results depend on the processing

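Over 26 alternatives, 2943 of 3120 tests of single genes of the 40 kept their side of the threshold, 90 lost a call and 87 gained one. Most of these tests began uncalled, since the main fit called only 10, 11 and 1 of the 40 genes in its 3 comparisons. The sign of the relative change turned in 171 of the 3120 tests, 0 of which were called in either fit. The largest change among these was 0.1 in size. In sensitive versus vehicle tumors, the counts of these genes that rose and fell (0 and 1) became 3 and 0 with median-of-ratios scaling, quantile normalization or centring (added after seeing the data), 0 and 2 with A libraries alone, 1 and 2 over 26 libraries with the mouse as a random effect, 3 and 2 with weights per mouse, and 0 to 1 and 0 to 2 when leaving out 1 mouse. In resistant versus sensitive tumors, the 10 that fell became 5 with median-of-ratios scaling or centring, 4 with A libraries alone, 16 with weights per mouse and 4 to 12 when leaving out 1 mouse. In resistant versus vehicle tumors, the 0 and 11 became 1 and 4 with median-of-ratios scaling or centring, 0 and 18 over 26 libraries and 11 to 14 that fell when leaving out 1 mouse. With the letter as a replicate block over 26 libraries, 1 rose and 1 fell in sensitive versus vehicle, 15 fell in resistant versus sensitive and 17 fell in resistant versus vehicle tumors. Letters A and B only number the libraries of a mouse: deviations of same-letter libraries correlated at -0.004, -0.051 and -0.048. The median change of the 40 genes in resistant versus vehicle tumors was -0.14 with no filter on low values.

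Over all genes, 445 rose and 1767 fell in sensitive versus vehicle tumors. Median-of-ratios scaling gave 792 and 1059, quantile normalization 938 and 989, centring 1018 and 966, and weights per mouse 1023 and 3390; 237 rose with A libraries alone and 239 with the 2 compared groups alone. Leaving out 1 mouse gave 99 to 544 and 802 to 1911. In resistant versus sensitive tumors 1346 rose and 1631 fell. With weights per mouse 2036 rose, with A libraries alone 1081 fell, and leaving out 1 mouse gave 675 to 1594 and 690 to 1977. Median-of-ratios scaling split them 1726 to 1344 and centring 1747 to 1245. In resistant versus vehicle tumors 1624 rose and 4570 fell, while median-of-ratios scaling gave 2562 and 2417. They were 2333 and 2773 with quantile normalization and 2931 and 2071 with centring. The cause of these differences was not tested. The fitted median of all genes in resistant versus vehicle tumors was -0.14, and 0.00, -0.03 and 0.03 under the 3 scalings. The number of mice, 3 in the sensitive group, limits every comparison with it.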
